A study of Saccharomyces cerevisiae with 6 samples.

Results

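The 9 genes described here encode enzymes of pyrimidine nucleotide synthesis in budding yeast (Saccharomyces cerevisiae) and were taken by name from the 6692 gene identifiers counted in each library: URA1 (YKL216W), URA2 (YJL130C), URA4 (YLR420W), URA5 (YML106W), URA6 (YKL024C), URA7 (YBL039C), URA8 (YJR103W), URA10 (YMR271C) and FUR1 (YHR128W). RNA was sequenced from 3 libraries of cells depleted of Rio1, an essential atypical protein kinase that acts in small ribosomal subunit maturation and at the rDNA, and from 3 control libraries, to ask which transcripts change when Rio1 is lost. All 6 libraries came from a haploid MATa strain of the W303 background with the alleles ura3-1, his3-11,15, can1-100, trp1-1 and ade2-1 and the leu2 marker allele of that background, in which Rio1 carries a C-terminal auxin-inducible degron (RIO1-AID) and OsTIR1, a plant F-box protein, is made from the ADH1 promoter (PADH1-OsTIR1). Cells grew exponentially in YPD, a rich glucose medium, at 23 °C. The depleted cultures received 500 µM auxin for 1 h, which directs the tagged protein to the proteasome, and the control cultures received none. The titles name the controls wild type and the series text an isogenic wild-type strain, while the source field gives the degron strain for both groups. There was no library of auxin-treated cells with untagged Rio1, so effects of auxin and of Rio1 loss cannot be told apart. The labels do not say whether the libraries came from separate cultures, and the p-values therefore reflect only library-to-library spread, part of which may be technical.

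Pyrimidine nucleotides are built de novo from glutamine, bicarbonate and aspartate through dihydroorotate and orotate to UMP, which is then phosphorylated and partly aminated to CTP. Ura2 starts the route, Ura4 and Ura1 make dihydroorotate and orotate, Ura5 and Ura10 attach the ribose phosphate, Ura3 makes UMP, Ura6 phosphorylates it, and Ura7 and Ura8 make CTP, while Fur1 makes UMP directly from uracil taken up from the medium. In yeast the zinc cluster protein Ppr1 activates URA1, URA3 and URA4 when pathway intermediates accumulate, and the choice of transcription start site at URA2 and URA8 is known to follow the nucleotide supply. The ura3-1 allele of this strain is a marker mutation of the step before UMP. Cells of that genotype depend on pyrimidines taken up from the medium, such as uracil used by Fur1, unless they also carry a functional copy, and the labels name none.

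Upstream sequence is shown for the genes with a match to the paired CGG and CCG triplets that Ppr1 is known to recognise, because these genes share a known activator and can be compared with the rest of the pathway. The motif searched was CGGNNNNNNCCG, which reads the same on both strands, in the 250 bases before the start codon in RefSeq assembly R64, the assembly known as sacCer3. It was present in 63 of 6020 protein-coding genes (1.05%). Of the 9 genes, URA1 held 2 matches and URA4 held 1, and URA3 held 1. The stretches below run 5′ to 3′ on the strand of the gene, with the match in capitals. They lie at chrXI:24993-25024 and chrXI:25024-25055 (plus strand) for URA1, chrXII:963645-963676 (plus strand) for URA4 and chrV:116005-116036 (plus strand) for URA3, and the first base of each match is 212, 181, 130 and 152 bases before the start codon.
URA1 distal: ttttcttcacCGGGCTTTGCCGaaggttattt
URA1 proximal: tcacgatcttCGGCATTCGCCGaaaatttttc
URA4: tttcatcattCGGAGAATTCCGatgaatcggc
URA3: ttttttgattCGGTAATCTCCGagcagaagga
The core of the site of Gcn4, the activator of amino acid synthesis genes, was searched as TGACTC on both strands and was present before 375 of the 6020 genes (6.23%). It occurred once before URA4 and 2 times before URA10, and these matches do not overlap those of the Ppr1 motif. The matches are descriptions of sequence and were not tested for binding.

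The 6 libraries held 683896 to 1671136 gene counts, so that 1 read was worth 0.60 to 1.46 CPM (counts scaled to a common library size) before further scaling. Levels are given as CPM on library sizes scaled by TMM, a method that centres the bulk of genes, and the 3 values of a group follow libraries 1 to 3 in order. RIO1 mRNA stood at 66.0, 66.6 and 63.1 CPM in the controls and at 130.2, 112.7 and 94.0 in the depleted libraries, and as the degron acts on the protein this does not check the depletion. Depleted library 2 and control library 1 stood apart in reads of annotated open reading frames inside the rDNA, with 4.12% and 1.48% of gene counts; the other 4 libraries held 0.058% to 0.194%. The 5 MATa-specific genes STE2, STE6, BAR1, MFA1 and MFA2 summed to 1187 to 1429 CPM. The 4 MATalpha-specific genes STE3, MF(ALPHA)1, MF(ALPHA)2 and SAG1 summed to 37.3, 31.1 and 21.5 CPM in the controls and to 46.9, 45.5 and 51.5 in the depleted libraries. Most of it was SAG1. In the test used below SAG1 was higher (log2 fold change 0.83) and BAR1 lower (-0.38) in the depleted libraries, each at an edgeR adjusted p of 0.0394. STE2, STE6 and MFA2 did not pass. MF(ALPHA)1, the alpha-factor gene, had 1 read in control library 2 and none in the other libraries.

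Rio1-depleted cells held less mRNA for the entry enzyme of the pathway, for orotate phosphoribosyltransferase, for UMP kinase and for the uracil salvage enzyme, and more mRNA for the minor CTP synthase. Of the 9 genes, 4 fell (URA2, URA5, URA6 and FUR1), 1 rose (URA8) and 4 did not pass the test (URA1, URA4, URA7 and URA10). Among all 5195 genes tested, 28.3% were called in either direction at an edgeR adjusted p under 0.05, 14.1% lower and 14.1% higher. The changes were moderate: none of the 5 calls held in a test against a 1.5-fold change (glmTreat), in which 190 genes (3.66%) were lower and 204 (3.93%) higher. At an unadjusted p under 0.05 that test gave 1 of the 9 lower (URA5) and 1 higher (URA8), beside 292 lower and 378 higher among all genes tested. The median log2 fold change of the 9 genes was -0.34, against 0.01 for all genes tested. The libraries of the groups did not overlap for 5 of the 9 genes, against 40.6% of all genes tested. When library totals alone were used for scaling, the median log2 fold change over all genes shifted upward by 0.31, and 2 of the 9 genes were then lower and 3 higher, beside 5.89% lower and 33.9% higher among all genes tested, so each direction given here is relative to the bulk of genes. URA6 and FUR1 lost their calls with that scaling, and FUR1 kept its call in only 10 of 15 alternative fits. Total RNA per cell was not measured, and fewer cells expressing a gene and less RNA per cell cannot be told apart.

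**Figure D1:**
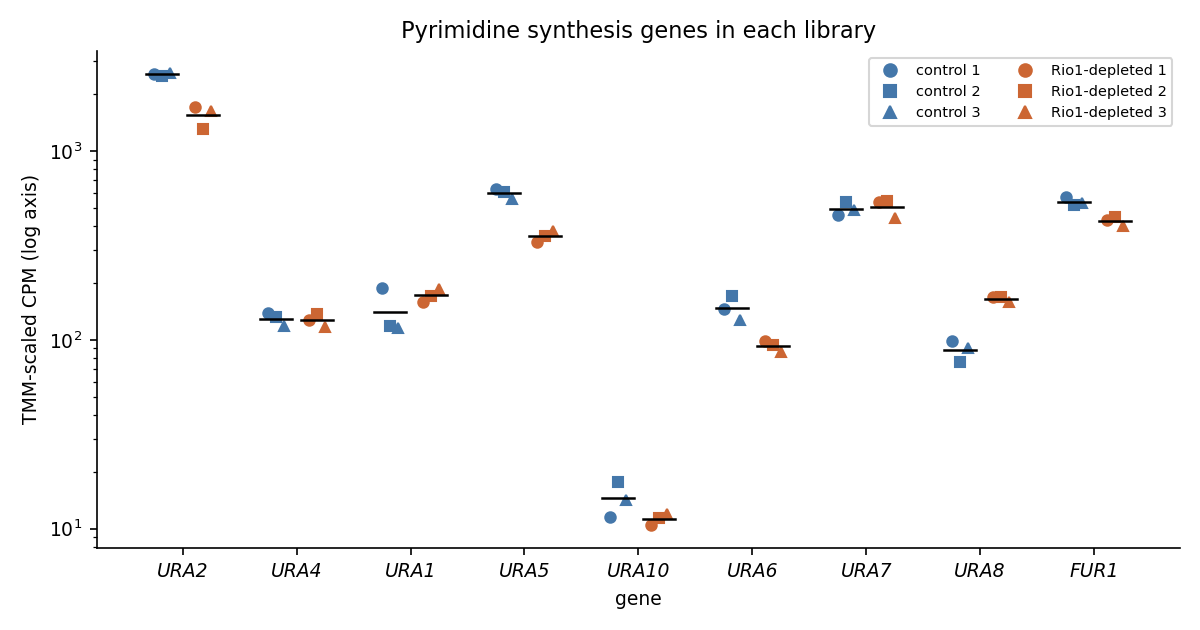
TMM-scaled CPM (log axis) of the 9 genes in each library, ordered by step of the pathway with FUR1 last; blue symbols are the 3 control and orange symbols the 3 depleted libraries, and black lines are group means. The groups are separate for URA2, URA5, URA6, URA8 and FUR1 and overlap for URA4, URA1, URA10 and URA7.

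URA2 (chromosome X, 165723 to 172367, minus strand) encodes the multifunctional protein that makes carbamoyl phosphate and joins it to aspartate, the step at which UTP inhibits the pathway. It was the most abundant of the 9 in CPM, at 2564, 2493 and 2577 CPM in the controls and 1713, 1314 and 1638 CPM in the depleted libraries. The controls lay close together and every depleted library was well below them, with depleted library 2 the lowest. URA2 fell 1.64-fold, by -0.71 ± 0.12 in log2 fold change (SE, n = 3 per group), with an edgeR adjusted p of 0.000229.

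The next enzymes are dihydroorotase, encoded by URA4 (chromosome XII, 963785 to 964879, plus strand), and dihydroorotate dehydrogenase, encoded by URA1 (chromosome XI, 25215 to 26159, plus strand), which in this species is cytosolic and passes electrons to fumarate. URA4 stood at 137.8, 132.3 and 118.8 CPM in the controls and at 127.6, 136.3 and 116.8 CPM in the depleted libraries. These ranges overlap almost entirely, and the log2 fold change was -0.02 with a 95% interval of -0.31 to 0.27 (edgeR adjusted p = 0.936). Its sign turned to 0.30 with library totals only, 0.02 with a mean of at least 50 counts, 0.04 without depleted library 3 and 0.0005 without control library 1, and none of these passed the test.

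URA1 stood at 188.1, 119.0 and 116.1 CPM in the controls and at 158.8, 171.3 and 186.1 CPM in the depleted libraries. Control library 1 lay above all depleted libraries and the other controls below all of them. The log2 fold change of 0.33 (95% interval -0.01 to 0.67) did not pass the test (edgeR adjusted p = 0.142). Without control library 1, one of the libraries with more rDNA counts, it was 0.53 and passed (edgeR adjusted p = 0.014), and with library totals only it was 0.65 (edgeR adjusted p = 0.0036). With the open reading frames inside the rDNA removed from all libraries it stayed at 0.33 and did not pass (edgeR adjusted p = 0.129).

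URA3, which encodes OMP decarboxylase, stood at 749, 746 and 681 CPM in the controls and at 641, 660 and 612 CPM in the depleted libraries. The depleted libraries lay just below the controls, but the log2 fold change of -0.19 ± 0.11 (SE, n = 3 per group) did not pass the test (edgeR adjusted p = 0.243) and turned to 0.13 with library totals only. Reads from the ura3-1 allele and from any marker copy cannot be told apart in these counts. PPR1 mRNA itself had a log2 fold change of 0.27 ± 0.18 (SE, n = 3 per group; edgeR adjusted p = 0.306), from 58.7 ± 4.04 to 70.9 ± 6.74 CPM (SD, n = 3 each).

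Orotate phosphoribosyltransferase, which joins orotate to PRPP, has a major form encoded by URA5 (chromosome XIII, 56773 to 57453, plus strand) and a minor form encoded by URA10 (chromosome XIII, 806865 to 807548, minus strand). URA5 stood at 632, 610 and 554 CPM in the controls and at 331, 354 and 379 CPM in the depleted libraries. The groups were far apart, and URA5 had the largest fall of the 9 genes, 1.68-fold (log2 fold change -0.75 ± 0.11, SE, n = 3 per group; edgeR adjusted p = 4.82e-05). URA2 and URA5 were the only genes of the 9 that were also lower with library totals only, at log2 fold changes of -0.39 and -0.43.

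URA10 had only 8, 20 and 21 reads in the controls and 8, 13 and 12 reads in the depleted libraries, or 11.5, 17.8 and 14.1 against 10.4, 11.4 and 11.9 CPM. Its log2 fold change was -0.38 with a 95% interval of -1.11 to 0.35 (edgeR adjusted p = 0.462), so a change of the size of that of URA5 was not detectable at this depth. URA10 made up 1.79% to 2.83% of the reads of the pair in the controls and 3.04% to 3.11% in the depleted libraries. The 95% Wilson intervals, which cover counting error only, were wide, from 0.91% to 3.48% in control library 1 and from 1.56% to 5.91% in depleted library 1.

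URA6 (chromosome XI, 392526 to 393140, minus strand) encodes UMP kinase, which makes UDP and through which both the de novo and the salvage route pass. It stood at 145.0, 169.6 and 126.9 CPM in the controls and at 98.9, 93.5 and 86.1 CPM in the depleted libraries. All depleted libraries lay below all controls, which spread more than the depleted libraries did. URA6 fell 1.58-fold (log2 fold change -0.66 ± 0.15, SE, n = 3 per group; edgeR adjusted p = 0.00258), a call lost with library totals only (-0.35, edgeR adjusted p = 0.0793).

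CTP synthase, which aminates UTP with glutamine as donor and in yeast assembles into filaments, is encoded by URA7 (chromosome II, 143989 to 145728, minus strand) and URA8 (chromosome X, 620754 to 622490, plus strand). URA8 stood at 99.1, 76.3 and 90.0 CPM in the controls and at 167.9, 167.8 and 159.4 CPM in the depleted libraries. The depleted libraries agreed closely and lay far above the controls. URA8 rose 1.88-fold (log2 fold change 0.91 ± 0.14, SE, n = 3 per group, edgeR adjusted p = 6.408e-05). With TMM scaling it was the only gene of the 9 called higher and had the largest change among them. It narrowly missed the threshold against 1.5-fold (glmTreat adjusted p = 0.0514).

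URA7, the major form, stood at 458.0, 534.5 and 486.7 CPM in the controls and at 535.1, 543.6 and 443.5 CPM in the depleted libraries. Here the groups overlap, with depleted library 3 below every control, and the log2 fold change was 0.04 with a 95% interval of -0.21 to 0.29 (edgeR adjusted p = 0.843). With library totals only it was 0.35 and passed (edgeR adjusted p = 0.0261). Leaving out depleted library 1, depleted library 2 or control library 1 turned it to -0.01, -0.02 or -0.03, and none of these passed.

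The share of URA8 within its pair went up. URA8 gave 17.8%, 12.5% and 15.6% of the reads of both genes in the controls and 23.9%, 23.6% and 26.4% in the depleted libraries, or 15.3% ± 2.66 against 24.6% ± 1.57 (SD, n = 3 each). The groups did not overlap, although some 95% Wilson intervals did. That of control library 1 (14.3% to 21.9%) overlapped those of depleted library 1 (20.5% to 27.7%) and depleted library 2 (20.8% to 26.6%). The log2 ratio of URA7 to URA8 per kb was 2.48 ± 0.30 in controls and 1.61 ± 0.12 in depleted libraries (SD, n = 3 each), a difference of -0.87 ± 0.19 (SE). The 2-sided exact permutation p was 0.1, the smallest this test allows for 3 against 3 libraries, and 0.1 after adjustment over the 2 pairs compared, so this test cannot reach 0.05 here. This ratio is taken within a library and does not depend on the scaling between libraries.

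For URA5 and URA10 the log2 ratio per kb was 5.40 ± 0.35 in controls and 4.99 ± 0.02 in depleted libraries (SD, n = 3 each), a difference of -0.41 ± 0.20 (SE; 2-sided exact permutation p = 0.1, adjusted p = 0.1). Without control library 1 that difference was -0.22. The URA7 and URA8 coding sequences are 72.5% identical and those of URA5 and URA10 70.4%. The longest exact stretch that any of the 9 genes shares with another place in the genome was 17 to 20 bases, and no gene in the R64 annotation overlaps them. The closest neighbours were MIN9, 5 bases from URA6, and SOD1, 59 bases from URA8. Of the 6692 identifiers counted, 684 did not match R64, and the strand option of the counting is not given. Whether reads of neighbours were counted for a member was not tested.

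**Figure D2:**
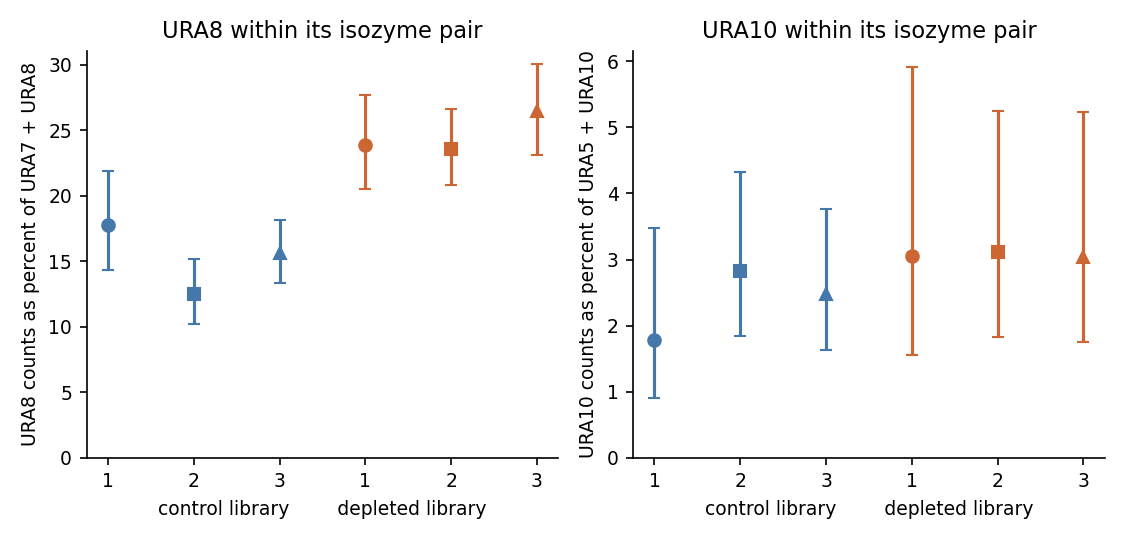
Reads of URA8 as a percent of URA7 and URA8 together (left) and of URA10 as a percent of URA5 and URA10 together (right) in each control (blue) and depleted (orange) library; bars are 95% Wilson intervals, which cover counting error only. URA8 lies between 12.5% and 17.8% in controls and between 23.6% and 26.4% in depleted libraries, while the intervals for URA10 overlap throughout.

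FUR1 (chromosome VIII, 362115 to 362765, plus strand) encodes uracil phosphoribosyltransferase, the enzyme of uracil salvage. It stood at 567, 519 and 528 CPM in the controls and at 432, 445 and 401 CPM in the depleted libraries. The groups were separate, yet the difference was the smallest of the 5 called, at 1.26-fold lower (log2 fold change -0.34 ± 0.11, SE, n = 3 per group; edgeR adjusted p = 0.0282). The call was lost without depleted library 3, control library 1 or control library 3 (edgeR adjusted p = 0.053, 0.0821 and 0.0551), and with library totals only the log2 fold change was -0.02 (edgeR adjusted p = 0.908).

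**Figure D3:**
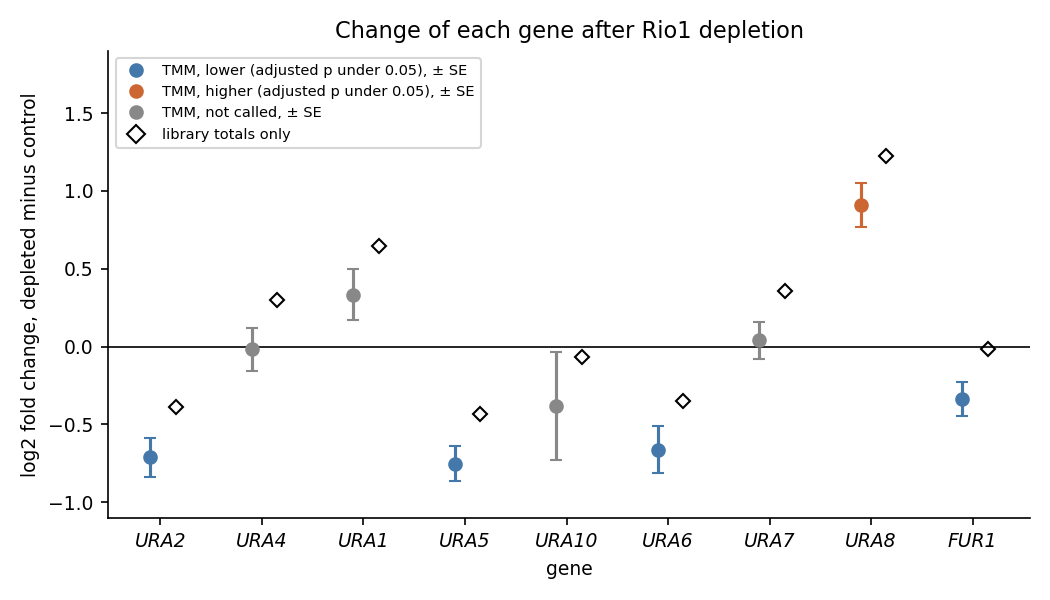
Log2 fold change (depleted minus control) of the 9 genes with its SE from the edgeR fit with TMM scaling (filled circles, blue for lower, orange for higher and grey for not called, n = 3 per group) and the same fit with library totals only (open diamonds). The diamonds lie above the circles by about the shift of the median of all genes, 0.31, and URA2, URA5 and URA8 stay on the same side of 0 with both scalings and pass the test in both.

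Per kb of coding length, which allows levels of different genes to be compared, the control order was URA5 (879 CPM per kb), FUR1 (827), URA2 (383), URA7 (283), URA6 (239), URA1 (149), URA4 (118), URA8 (50.9) and URA10 (21.1). Libraries overlapped between URA5 and FUR1, between URA7 and URA6 and between URA1 and URA4, so those neighbours do not differ beyond their spread. In depleted cells FUR1 (654 CPM per kb) stood above URA5 (521) with no overlap, followed by URA7 (292) and URA2 (234), which overlapped, and then by URA1 (182), URA6 (151), URA4 (116), URA8 (95.0) and URA10 (16.4). The order of the means thus changed between URA5 and FUR1, between URA2 and URA7 and between URA6 and URA1, and of these only URA6 and URA1 were separate in both groups. The 9 genes together took 0.424%, 0.423% and 0.411% of gene counts in the controls and 0.402%, 0.353% and 0.383% in the depleted libraries, with 95% Wilson intervals of at most 0.0153 percentage points to either side. The control libraries lay above the depleted ones, and depleted library 2 was the lowest. Its gene counts include the rDNA reads given above, and the share without them was not calculated. Its URA2 value was also the lowest after TMM scaling, at 1314 CPM. This lower joint share came from URA2. In the controls URA2 gave 1786, 2808 and 3838 of the 3345, 5262 and 6869 reads of the 9 genes. In the depleted libraries it gave 1316, 1503 and 1655 of 2746, 3703 and 3457. The remaining genes together took a larger share of gene counts in every depleted library than in any control. These shares are not TMM-scaled, and on library totals only the median log2 fold change of all genes tested was 0.33. The larger share is therefore not a rise relative to the bulk of genes. With TMM scaling URA5, URA6 and FUR1 were lower and URA8 was higher.

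Genes around the pathway were read in 3 lists from general knowledge, chosen by function with earlier results of these data known. Of the 23 genes reported, all tested, 6 fell (DFR1, CPA1, FCY2, DUT1, PRS3 and PRS1), 1 rose (FUI1) and 16 did not pass the test, with a median log2 fold change of -0.37, beside 14.1% lower, 14.1% higher and a median of 0.01 among all genes tested. With library totals only 1 fell (DFR1) and 8 rose, beside 5.89% lower and 33.9% higher among all genes tested, so the 8 rises are close to the share over all genes.

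In the list of precursor supply and control, 3 of 8 genes fell and none rose, with a median of -0.02, beside 14.1% of all genes in each direction. With library totals only none of the 8 was lower, 4 were higher and the median was 0.30. Of all genes tested, 33.9% were higher and 5.89% lower with that scaling, and the all-gene median was 0.33. The directions in this list therefore depend on the scaling, and its median of 0.30 lies near that of all genes. With TMM scaling the edgeR count of 0 rises was also 0 in limma-voom, as it was in DESeq2, and 1 gene, PRS5, was higher at an unadjusted p under 0.05. CPA1 encodes a subunit of the arginine-specific carbamoyl phosphate synthetase, which makes the same intermediate as Ura2 for another pathway. It stood at 590, 565 and 599 CPM in the controls and at 344, 337 and 447 CPM in the depleted libraries, with no overlap. CPA1 fell by 0.64 on the log2 scale, from 585 ± 18.0 to 376 ± 61.3 CPM (SD, n = 3 each; edgeR adjusted p = 0.000665), a call lost with library totals only (edgeR adjusted p = 0.0512).

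The PRS genes encode subunits of PRPP synthetase, which supplies the ribose phosphate used by Ura5, Ura10 and Fur1. PRS3 fell from 225 ± 6.02 to 163 ± 29.9 CPM and PRS1 from 517 ± 23.8 to 410 ± 26.3 CPM (SD, n = 3 each), with edgeR adjusted p of 0.0103 and 0.0301. PRS2, PRS4 and PRS5 had log2 fold changes of 0.20, 0.15 and 0.27, which did not pass. Neither fall held with library totals only, the PRS3 call was lost without depleted library 2 (edgeR adjusted p = 0.0568) and the PRS1 call without depleted library 1, control library 1 or control library 2 (0.0762, 0.0699 and 0.0815).

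In the list of uptake, salvage and interconversion, 1 of 10 genes fell and 1 rose, with a median of -0.37, and both counts are close to the 14.1% of all genes in each direction. With library totals only none of the 10 was lower, 4 were higher and the median was -0.06. Of all genes tested, 33.9% were higher and 5.89% lower with that scaling, and the all-gene median was 0.33. FCY2, the purine and cytosine permease gene, stood at 320, 276 and 293 CPM in the controls and at 143, 194 and 243 CPM in the depleted libraries, separate groups with a log2 fold change of -0.60 ± 0.14 (SE, n = 3 per group; edgeR adjusted p = 0.00393). FUI1, the uridine permease gene, stood at 119, 113 and 115 CPM in the controls and at 184, 139 and 157 CPM in the depleted libraries. The depleted libraries all lay above the controls, with a log2 fold change of 0.46 ± 0.14 (SE, n = 3 per group; edgeR adjusted p = 0.0179). The FUI1 call was not made by DESeq2 (adjusted p = 0.0717) and was lost without depleted library 1, control library 2 or control library 3 (edgeR adjusted p = 0.0925, 0.0793 and 0.0725). The FCY2 call was lost with library totals only (edgeR adjusted p = 0.127). FUR4, the uracil permease gene that feeds Fur1, had a log2 fold change of -0.37 ± 0.20 (SE, n = 3 per group; edgeR adjusted p = 0.189).

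In the list of deoxypyrimidine and thymidylate synthesis, 2 of 5 genes fell and none rose, with a median of -0.50, beside 14.1% of all genes in each direction. With library totals only 1 was lower and none higher, with a median of -0.19, beside 5.89% lower, 33.9% higher and a median of 0.33 among all genes tested. The edgeR count of 0 rises was also 0 at an unadjusted p under 0.05, and 0 in DESeq2 and limma-voom. DFR1, the dihydrofolate reductase gene that regenerates the folate used in thymidylate synthesis, stood at 31.6, 52.4 and 40.3 CPM in the controls and at 13.0, 13.1 and 9.90 CPM in the depleted libraries. The groups were far apart, and the difference in log2 of -1.80 ± 0.30 (SE, n = 3 per group; edgeR adjusted p = 0.000155) was the largest among the 23 genes. It rested on few reads, 22, 59 and 60 in the controls and 10, 15 and 10 in the depleted libraries. DFR1 was not tested under the filter of a mean of at least 50 counts. DUT1, the dUTPase gene, stood at 129, 100 and 114 CPM in the controls and at 108, 62.9 and 60.4 CPM in the depleted libraries. These groups overlap, because depleted library 1 lay within the control range, with a log2 fold change of -0.59 ± 0.20 (SE, n = 3 per group; edgeR adjusted p = 0.0317). The DUT1 call was lost with library totals only, in DESeq2 (adjusted p = 0.0573) and when depleted library 2, depleted library 3, control library 1 or control library 3 was left out (edgeR adjusted p = 0.0785 to 0.122).

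**Figure D4:**
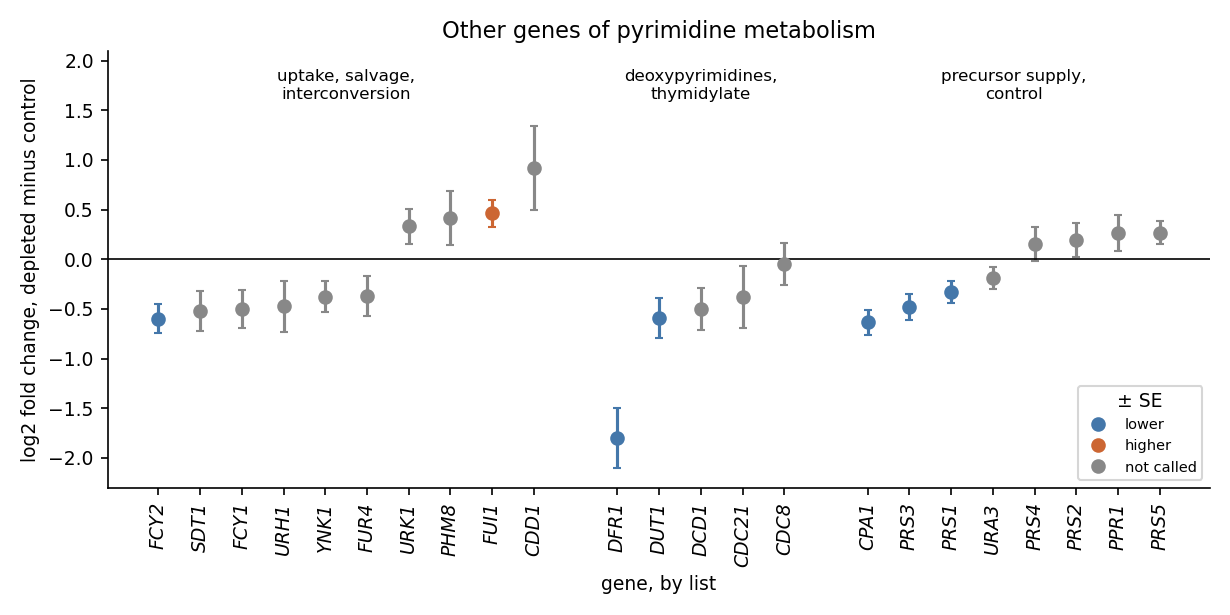
Log2 fold change (depleted minus control) with its SE from the edgeR fit (n = 3 per group) for 23 other genes of pyrimidine metabolism in 3 lists; blue is lower, orange higher and grey not called. DFR1 (-1.80) lies farthest from 0, and FUI1 (0.46) is the only gene called higher.

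The genes whose pattern was most like that of URA8 and URA5, the largest rise and fall among the 9, were found as the smallest root mean square difference of log2(CPM + 0.5) over the 6 libraries after centring on the control mean. For URA8 these were HIP1, the histidine permease gene (difference 0.05), MIX17, which encodes a mitochondrial intermembrane space protein (0.07), and RPN4, the activator gene of the proteasome genes (0.08), with log2 fold changes of 0.94, 0.91 and 0.85. For URA5 these were GPD2, glycerol-3-phosphate dehydrogenase (0.03), FRE1, a ferric reductase (0.05), and KCS1, an inositol hexakisphosphate kinase (0.05), with log2 fold changes of -0.75, -0.73 and -0.68. With 2 groups, this likeness mostly follows the size of the change between them.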

How the data were processed

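The deposited values are raw read counts per gene, 1 file per library, with 5 HTSeq summary rows that were left out of library sizes. The tools named are TopHat2 2.0.8, DESeq and HTSeq, with build sacCer3, per the submitters' processing notes; which settings, strand option and annotation they had is not given in the sources used here. Reads aligned to more than 1 place (45.2% to 65.9% of each file's total), reads outside genes (11.0% to 17.9%) and ambiguous reads (0.81% to 1.46%) are in those summary rows. Of 6692 identifiers, 6008 matched RefSeq R64 locus tags, which gave names and coordinates.

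Counts were fitted with edgeR 4.0.16 in R 4.3.3 (filterByExpr, TMM, glmQLFit, glmQLFTest, group only) over all 5195 genes that passed the filter, with Benjamini-Hochberg adjustment and a threshold of 0.05. All 9 members passed. The SE is the absolute log2 fold change over the square root of F, and intervals use the fit's degrees of freedom. Libraries of 1 group differed by more than sampling noise (chi-square 2.53 to 10.7 per degree of freedom), and none were identical. Groups follow the protocol field of the labels. Named genes are the 9 members, RIO1, URA3, the called genes of 3 lists, the mating-type markers and the 3 genes most like URA8 and URA5; PPR1, FUR4, PRS2, PRS4, PRS5 and CDC8 are named outside this rule, after their values were seen. One gene of the lists is not reported here. Members, lists and tests were chosen with earlier results of these data known. Alternatives were RLE factors, library totals only, removal of the rDNA reading frames, 2 other count filters, DESeq2 1.42.0, limma-voom 3.58.1, glmTreat, a replicate block and each library left out.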

Additional observations from a re-analysis of the deposited data

How the results depend on the processing

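The 4 lower calls and the 1 higher call among the 9 genes were also made with RLE factors, without the rDNA reading frames, with either other count filter, and by DESeq2 and limma-voom. With library totals only, 306 genes were lower and 1761 higher, 2 of the 9 lower and 3 higher (URA1 0.65, URA7 0.35 and URA8), and of the 23 other genes 1 was lower and 8 higher; URA6 (-0.35) and FUR1 (-0.019) lost their calls, and URA4 (0.30), URA3 (0.13) and CDC8 (0.27) changed sign. Relative to TMM, that setting moved the median of all genes up by 0.31. The TMM factors it leaves out were 1.10 to 1.13 in the depleted and 0.89 to 0.91 in the control libraries. Against 1.5-fold (glmTreat) 190 genes were lower and 204 higher, 0 and 0 of the 9, and 1 and 0 of the 23, with URA2 at -0.71, URA5 at -0.75, URA6 at -0.66, FUR1 at -0.34 and URA8 at 0.91. DESeq2 called 0 of the 23 higher, beside 530 of all genes. With a mean of at least 50 counts URA4 came to 0.018 and URA10 was not tested. With 1 library left out, 3 to 4 of the 9 were lower and 1 to 2 higher, and 0 to 2 of the 23 were higher. Among all genes 591 to 699 were lower and 529 to 669 higher in those fits. The log2 fold change then ran from 0.18 to 0.53 for URA1, from -0.10 to 0.039 for URA4, from -0.029 to 0.12 for URA7, from -0.38 to -0.30 for FUR1 and from -0.22 to 0.092 for CDC8. The cause of the leave-one-out changes was not tested. The isozyme ratios kept their direction in every alternative run. Same-numbered libraries share only a number (correlations of their deviations -0.06, -0.001 and 0.08); with the replicate block 4 of the 9 were lower and 1 higher, and 756 genes lower and 741 higher. Depth limits URA10, at 8 to 21 reads per library, and DFR1, at 10 to 60.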
